A study of Saccharomyces cerevisiae with 6 samples.

Results

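Cdc28, the central cyclin-dependent kinase of budding yeast, and the 9 cyclins that bind it in turn through the cell cycle are encoded by 10 genes, *CDC28*, *CLN1* to *CLN3* and *CLB1* to *CLB6*. The genes were chosen by name, as the kinase and its full set of cyclins, with earlier results of these data known, and were looked up in the deposited H3K4me3 peak lists of WT and *jhd2∆* cells, which together name 4970 genes. Of the 10 genes, 5 had a peak in both lists (*CDC28*, *CLN1*, *CLN2*, *CLB3* and *CLB5*). Another 3 had a listed peak only in *jhd2∆* (*CLB1*, *CLB4* and *CLB6*), and 2 had none in either list (*CLN3* and *CLB2*). Absence from a list is not absence of a peak. The peak numbering skips numbers around each of these genes in the lists that lack it, read below as unlisted calls. Where both lists had a peak, those of the G1 cyclins *CLN1* and *CLN2* were broader in *jhd2∆* by 218 and 286 bp. Those of *CDC28* and *CLB5* were broader by 68 and 67 bp, and that of *CLB3* was narrower by 28 bp. The WT peak of *CLN2* was low in read coverage, with only 1.38% of the genes in the WT list lower. Low WT peaks had larger differences over the whole lists.

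Both strains were of the BY4742 background and prototrophic, and the mutant carried a deletion of *JHD2*, the gene for a JmjC demethylase of H3K4, by a hygromycin resistance cassette. GEO's labels give the mating type as Mat a, while the study's strain table gives MATα. Cells were grown in YAR, a synthetic medium with raffinose as carbon source and ammonium as nitrogen source, to an optical density of 0.5 and fixed with formaldehyde. No synchronisation of the cell cycle is described, so that each peak averages over cells at all stages. The 6 libraries are 1 each of H3K4me3 ChIP, pan-H3 ChIP and whole cell lysate per genotype, and only the H3K4me3 peak lists were used here. Each genotype has 1 H3K4me3 library, so that genotype, depth and peak calling cannot be told apart, the spread between cultures is unknown, and no p-value is given.

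A cyclin-dependent kinase is inactive until a cyclin binds it, so that the supply of cyclins, much of it set by periodic transcription, orders the events of division. In yeast, Cln3 starts the program in G1 by relieving the repressor Whi5, Cln1 and Cln2 then drive budding and entry into the cycle, Clb5 and Clb6 start DNA replication, Clb3 and Clb4 act in S phase and in spindle formation, and Clb1 and Clb2 drive mitosis. H3K4me3 is placed by Set1 over the 5′ part of transcribed genes. A broader peak therefore means that the called region reaches further upstream or further into the gene.

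The lists differed in size, with 4452 peaks assigned to 4628 genes in WT and 4713 peaks assigned to 4868 genes in *jhd2∆*. *JHD2* itself had a peak of 503 bp in WT and none in *jhd2∆*, as the labels require. The lists carry no read totals, and the labels give 1 approximate read number for all samples, so the depth of each library is unknown. Each position below is as the lists give it, and the lists name no genome build. All peaks of the 8 listed genes belonged to 1 gene each, and none of these genes had more than 1 peak in a list.

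Presence in the lists was compared first. WT listed 5 of the 10 genes and *jhd2∆* listed 8. Of the 6021 protein-coding genes in the RefSeq gene table, 74.3% were listed in WT and 78.5% in *jhd2∆*. Both lists held 5 of the 10 genes, against 73.1% of protein-coding genes. A peak was listed only in *jhd2∆* for 3 of the 10 genes, all of them B-type cyclins, against 5.33% of protein-coding genes. No member was listed only in WT, against 1.15% of protein-coding genes. Genes in neither list made up 20.4% of protein-coding genes and 2 of the 10 members. With 10 members these shares move by 10 percentage points for each gene, and they were not tested.

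*CDC28* (YBR160W), on chromosome II, encodes the kinase itself, which is needed throughout the cycle. Its WT peak ran from 559946 to 560496, a breadth of 551 bp with a pileup, the read coverage that MACS2 gives for a peak, of 308. Its *jhd2∆* peak ran from 559961 to 560579, a breadth of 619 bp with a pileup of 263. The *jhd2∆* peak was broader by 68 bp, and 77.5% of the 4526 genes that both lists name had a smaller difference. The upstream edge lay 15 bp further in and the downstream edge 83 bp further into the gene. Over 4521 genes whose systematic name gives a strand, the upstream edge moved outward by a median of -13 bp (quartiles -24 and -4 bp) and the downstream edge by a median of 29 bp (quartiles 3 and 69 bp). The upstream edge of *CDC28* thus lay near the middle of all genes and its downstream edge moved by more than in 79.6% of them.

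The G1 cyclins *CLN1* and *CLN2* are paralogs whose products act together at the start of the cycle. At *CLN1* (YMR199W), on chromosome XIII, the peak covered 662461 to 663186 in WT, a breadth of 726 bp with a pileup of 284. In *jhd2∆* it covered 662416 to 663359, a breadth of 944 bp with a pileup of 269. The difference was 218 bp, and 96.9% of genes had a smaller one. At *CLN2* (YPL256C), on chromosome XVI, the peak covered 66338 to 66720 in WT, a breadth of 383 bp with a pileup of 205. In *jhd2∆* it covered 66094 to 66762, a breadth of 669 bp with a pileup of 239. The difference was 286 bp, or 74.7% of the WT breadth, and 98.3% of genes had a smaller one. *CLN2* had the narrowest WT peak of the 5 genes, with only 5.81% of the genes in the WT list narrower, but in *jhd2∆* 47.5% of genes were narrower.

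**Figure D1:**
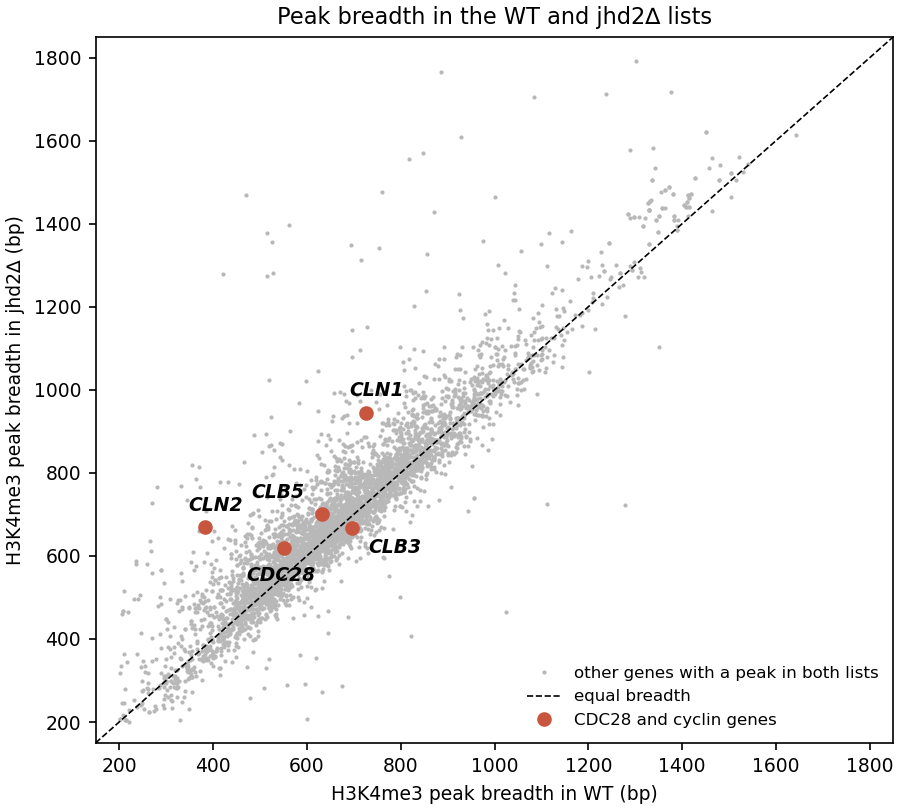
Breadth of the H3K4me3 peak in WT (x axis, bp) and *jhd2∆* (y axis, bp). Each grey point is 1 of the 4526 genes that both lists name, the dashed line marks equal breadth, and red points are *CDC28* and the 4 cyclin genes in both lists. *CLN1* and *CLN2* lie well above the line, *CDC28* and *CLB5* slightly above it and *CLB3* slightly below.

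At both genes the peak was extended at both edges. The upstream edge lay 45 bp further out at *CLN1* and 42 bp further out at *CLN2*, which was further than at 98.1% and 97.7% of genes. The downstream edge lay 173 and 244 bp further into the gene, more than at 94.8% and 97.5% of genes. An upstream edge further out in *jhd2∆* was found at 17.9% of all oriented genes, and both edges further out at 13.6%. *CLN1* and *CLN2* were the only members of the 5 with an upstream edge further out. When genes were split into 5 equal bins by WT pileup, *CLN1* fell in the bin next to the lowest, in which 17.7% of upstream edges lay further out, and *CLN2* in the lowest bin, in which 37% did.

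The third G1 cyclin gene, *CLN3* (YAL040C) on chromosome I, encodes the upstream activator of the other G1 cyclins and had no peak in either list. *CLN3* was the only gene between *CDC24* and *CYC3*, whose peaks flank it in both lists and which encode an activator of Cdc42 in bud formation and a heme lyase of cytochrome c. MACS2 numbers its calls along each chromosome, so that a number missing between listed peaks was read as a call that the list of gene-associated peaks does not hold. In both genotypes exactly 1 number was missing between *CDC24* and *CYC3*. The lists do not say where in the intervals of 5481 bp (WT) and 5442 bp (*jhd2∆*) this call lay, and intervals that skipped a number made up 16.3% of all intervals in WT and 14.3% in *jhd2∆*. The intervals at *CLN3* were longer than 93% and 94.1% of intervals, and the part of interval length in the missing number was not tested. Absence from the list was therefore not the same as absence of a call near the gene.

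**Figure D2:**
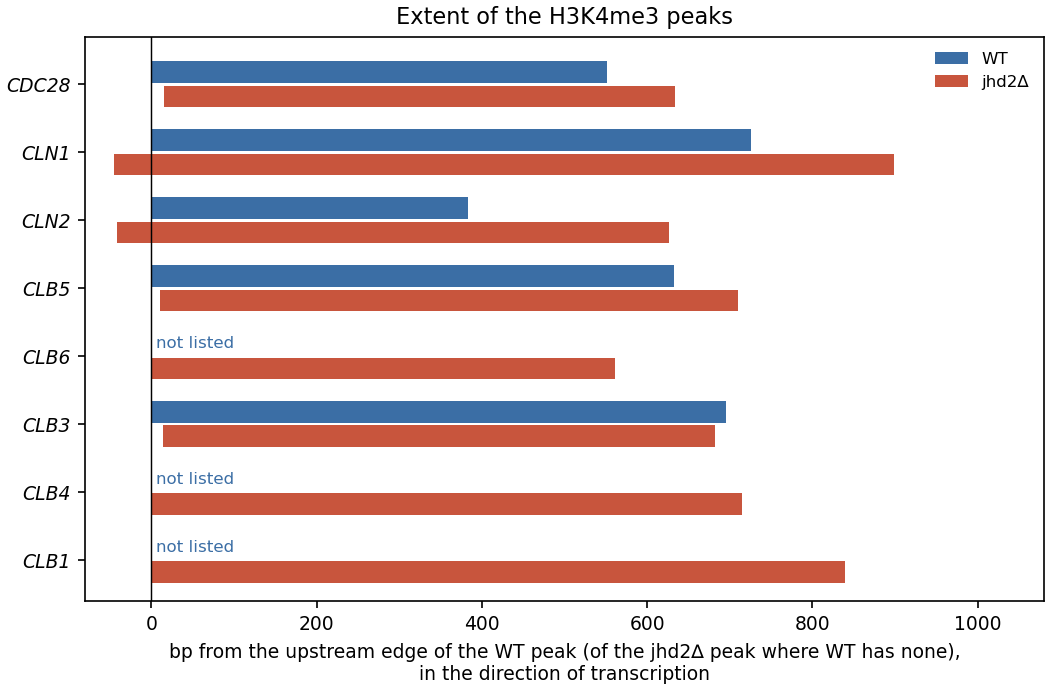
Extent of each listed H3K4me3 peak, in the direction of transcription, in bp from the upstream edge of the WT peak or, where WT has none, of the *jhd2∆* peak. Blue bars are WT and red bars *jhd2∆*, with 1 library each. *CLN1* and *CLN2* extend at both ends, *CDC28* and *CLB5* at the downstream end only, and *CLB3* is drawn in by 14 bp at each end.

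The S-phase cyclin gene *CLB5* (YPR120C), on chromosome XVI, had a peak over 774755 to 775387 in WT, with a breadth of 633 bp and a pileup of 230. In *jhd2∆* its peak lay over 774678 to 775377, with a breadth of 700 bp and a pileup of 235. The difference of 67 bp exceeded those of 77.2% of genes, with the upstream edge 10 bp further in and the downstream edge 77 bp further into the gene. Its paralog *CLB6* (YGR109C), on chromosome VII, was listed only in *jhd2∆*, from 705947 to 706507, with a breadth of 561 bp and a pileup of 221. This was the narrowest and lowest of the 8 member peaks in *jhd2∆*. Of the genes listed only in *jhd2∆*, 38% had a narrower and 18.7% a lower peak than *CLB6*.

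*CLB3* and *CLB4* are paralogs that act in S phase and early mitosis. *CLB3* (YDL155W), on chromosome IV, was the only member with a narrower peak in *jhd2∆*, which ran from 176615 to 177282 (668 bp), beside 176601 to 177296 (696 bp) in WT. Both edges lay 14 bp further in. The upstream shift was near the middle of all genes, with 47.2% lower, but only 11.1% of genes had a smaller downstream shift, and both edges lay further in at 17.4% of genes. *CLB4* (YLR210W), on chromosome XII, was listed only in *jhd2∆*, from 561875 to 562589 (715 bp) with a pileup of 290. That pileup was above those of 76.4% of genes in the *jhd2∆* list and of 88% of the 342 genes listed only in *jhd2∆*. The peak of *CLB4* was thus tall among those of genes absent from the WT list.

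The neighbourhood of *CLB4* differed between the lists in a further way. *PNP1*, which encodes purine nucleoside phosphorylase and is transcribed away from *CLB4*, was also listed only in *jhd2∆*, from 561107 to 561814 (708 bp), and 60 bp separated the 2 peaks. Between *SEC13* and *ATG38*, the nearest genes listed in both genotypes, the peak numbers gave 2 calls in *jhd2∆*, both of them listed. In WT they gave 1 call, which was not listed. The WT list thus skips 1 number in this interval, which was read as a call without a position. It cannot be said from the lists whether such a call lay over *CLB4*, over *PNP1* or over both.

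*CLB1* and *CLB2* are paralogs that encode the mitotic cyclins. *CLB1* (YGR108W), on chromosome VII, was listed only in *jhd2∆*, from 703337 to 704175 (839 bp) with a pileup of 253, the broadest member there after *CLN1*. Of the genes listed only in *jhd2∆*, 85.7% had a narrower peak than *CLB1* and 37.4% a lower pileup. *CLB2* (YPR119W), on chromosome XVI, the gene of the main mitotic cyclin, had no peak in either list.

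These genes lie in 2 similar blocks, since *CLB1* is next to *CLB6* and *CLB2* next to *CLB5*, in both cases with the genes facing each other. In *jhd2∆* the peaks of *CLB1* and *CLB6* were consecutive calls, 1771 bp apart. Between *VOA1* and *CLD1*, which flank that block in both lists, the peak numbers gave 6 calls in *jhd2∆*, of which 4 were not listed. In WT they gave 5 calls, none of them listed. In the other block, *CLB5* was listed in both genotypes. Between *MRI1* and *CLB5*, where *CLB2* lies, the peak numbers gave 3 calls in WT and 4 in *jhd2∆*, none of them listed. The intervals around both blocks are long and also hold tRNA genes. That of *CLB1* and *CLB6* further holds YGR109W-A and YGR109W-B. The missing numbers therefore cannot be given to single genes. No listed WT peak of any gene overlapped the *jhd2∆* peaks of *CLB1*, *CLB4* or *CLB6*. Unlisted WT calls have no position in the lists, so this check could not include them.

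**Figure D3:**
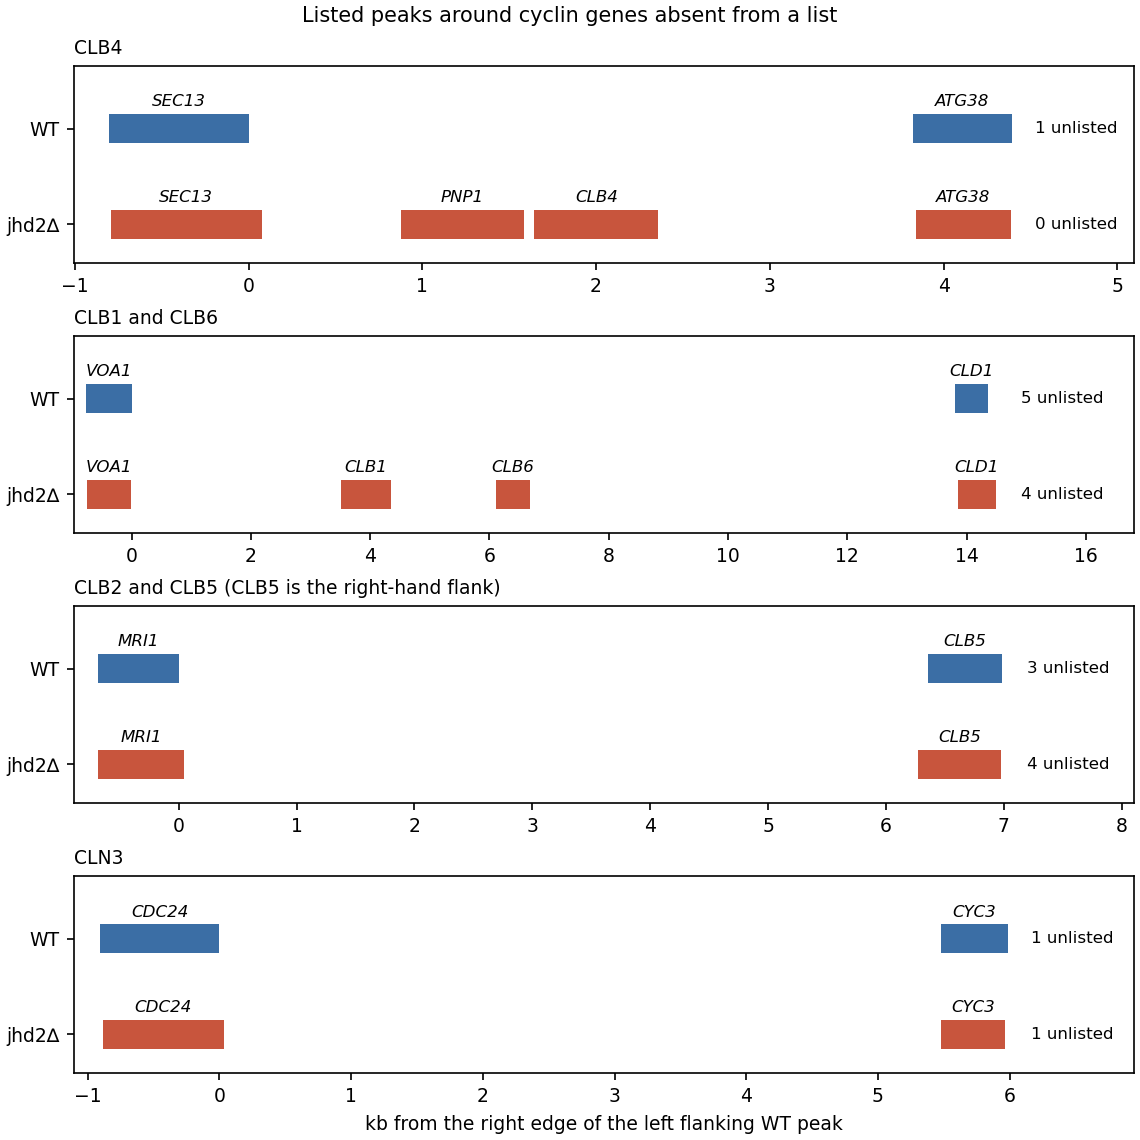
Listed H3K4me3 peaks around *CLB4*, *CLB1* and *CLB6*, *CLB2*, and *CLN3*, in kb from the right edge of the left flanking WT peak. Blue bars are WT and red bars *jhd2∆*, and the number at the right is the count of calls between the flanking peaks that the numbering skips. By the skipped numbers, WT has at least 1 unlisted call in all 4 intervals, and *jhd2∆* has 0 unlisted calls only around *CLB4*.

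Compared as paralog pairs, the 4 pairs gave 3 patterns. *CLN1* and *CLN2* were in both lists and differed in the same direction, *CLB3* and *CLB5* were in both lists while their partners *CLB4* and *CLB6* were only in *jhd2∆*, and *CLB1* was only in *jhd2∆* while its partner *CLB2* was in neither. No pair was listed in full in WT apart from *CLN1* and *CLN2*.

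The pileup heights were ranked within each list, since the scaling between the lists is not stated. The lowest peaks were those of *CLN2*, *CLB5* and *CLB6*. In WT, the pileup of 205 at *CLN2* was above those of only 1.38% of genes and the 230 at *CLB5* above those of 4.15%. In *jhd2∆*, the 239 at *CLN2* was above those of 10.8% of genes, the 235 at *CLB5* above those of 8.67% and the 221 at *CLB6* above those of 4.29%. *CLN1* was higher than these, with a pileup of 284 in WT (27.5% of genes lower) and 269 in *jhd2∆* (43.3%). The mitotic cyclin gene *CLB1*, at 253 in *jhd2∆*, was above 21.5% of genes, so that low heights were not limited to the cyclins of G1 and S phase.

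*CLB3* had a pileup of 308 in WT, above those of 59.8% of genes, and 287 in *jhd2∆*, above those of 72.3%, and *CDC28* had the same 308 in WT. *CDC28* was the only one of the 5 genes whose rank was lower in *jhd2∆*, at 33.9%, a change of -25.9 percentage points. Over all genes in both lists the median absolute change in rank was 8.71 percentage points and the upper quartile 17.2, and 88.9% of genes changed rank by less than *CDC28*. The ranks of *CLN1*, *CLB3*, *CLN2* and *CLB5* were higher in *jhd2∆*, by 15.7, 12.6, 9.4 and 4.52 percentage points, of which the last 2 are close to or below the median absolute change. Because the lists hold different genes, the ranks were also taken among the 4526 genes in both, an alternative chosen after seeing the data. The change was then -26.8 percentage points at *CDC28*, 15 at *CLN1*, 11.9 at *CLB3*, 8.4 at *CLN2* and 3.78 at *CLB5*, beside a median absolute change of 8.77.

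**Figure D4:**
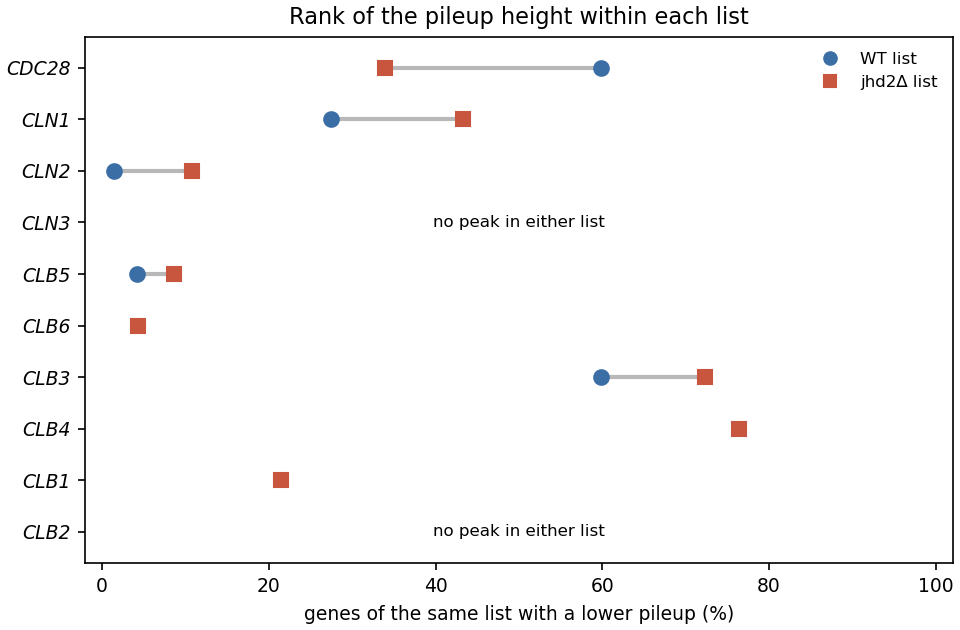
Rank of each member's pileup height, as the percent of genes of the same list with a lower pileup. Blue circles are WT and red squares *jhd2∆*, with 1 library each, and grey lines join the 2 values of a gene. *CLN2*, *CLB5* and *CLB6* lie at or below 10.8% wherever they are listed, and *CDC28* is the only gene whose square lies to the left of its circle.

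Set beside all genes, the members in both lists had a median difference in breadth of 68 bp, from -28 to 286 bp, while the median over all 4526 genes was 17 bp (quartiles -14 and 60 bp). The members' median was 142 bp without *CDC28*, 143 bp without *CLB5* or *CLB3*, and 67.5 bp without *CLN1* or *CLN2*. A peak broader by more than 100 bp was found at 2 of the 5 members, *CLN1* and *CLN2*, against 14.2% of all genes. Without the lowest 20% of peaks by pileup, which leaves out *CLN2* and *CLB5*, it was found at 1 of the 3 members left. The share of all genes under the same filter is not given, so this count cannot be set against the 14.2%. A peak narrower by more than 100 bp was found at none, against 1.3% of all genes. A broader peak of any size was found at 4 of the 5, against 63.2%. Limits of 50 and 200 bp gave 4 and 2 broader members, against 29.1% and 3.62% of all genes, and no narrower member at either, against 5.86% and 0.464%. Each of the 5 members is 20% of the count, and these shares were not tested against the background.

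Low WT peaks had larger differences over the whole lists, and this was checked for each member. Genes in the lowest of the 5 bins by WT pileup differed by a median of 44.5 bp (quartiles 5 and 110 bp), and those in the highest bin by a median of -2 bp. Among the 906 genes of the lowest bin, *CLN2* had a larger difference than 95.7%, but *CLB5* only than 58.6%. *CLN1* exceeded 97.5% of the genes of its own bin, *CDC28* 81.9% and *CLB3* 12.9%. The difference at *CLB5* was thus near the middle for a peak of its height, while *CLN1* and *CLN2* lay near the top of their bins, and the part of peak height in these differences was not tested.

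The order of breadths changed between the lists. In WT it ran from *CLN1* (726 bp) through *CLB3*, *CLB5* and *CDC28* to *CLN2* (383 bp), in steps of 30, 63, 82 and 168 bp. In *jhd2∆* it ran from *CLN1* (944 bp) through *CLB1*, *CLB4*, *CLB5*, *CLN2*, *CLB3* and *CDC28* to *CLB6* (561 bp), in steps of 105, 124, 15, 31, 1, 49 and 58 bp. Over all genes the 2 breadths of a gene differed by a median of 33 bp in either direction (quartiles 15 and 70 bp), a value that holds genotype and library together. The steps between *CLN1* and *CLB3* in WT, and from *CLB4* through *CLB5* and *CLN2* to *CLB3* in *jhd2∆*, were smaller than this median.

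Relative to the gene length given in the WT list, the WT breadth was 61.5% of the length at *CDC28*, 54.2% at *CLB3*, 48.4% at *CLB5*, 44.3% at *CLN1* and 23.4% at *CLN2*, where all genes had a median of 54.7%. In *jhd2∆* it was 69.1%, 52.1%, 53.6%, 57.6% and 40.9% in the same order of genes, beside a median of 58.7%. *CLN2* had a smaller share than most genes in both lists, with only 11.1% of genes lower in WT and 32.1% in *jhd2∆*. This ratio sets 2 lengths side by side and does not give the share of the gene that the peak covered.

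The breadths of *CDC28* in WT and *jhd2∆* were most like those of *RSM24*, YIL001W and *RCM1*, by the summed absolute difference over the 2 libraries (5, 9 and 9 bp) among 4512 genes with 1 peak in each list. *RSM24* encodes a protein of the mitochondrial ribosome and *RCM1* an rRNA methyltransferase. Their pileup ranks were 64.6%, 44.3% and 47.3% in WT, above and below the 59.8% of *CDC28*, and 71%, 44.9% and 79% in *jhd2∆*, all above its 33.9%.

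The nearest genes listed in both genotypes on either side of the 5 members, taken by position after the members' values had been seen, served to show whether a whole region was broader. Of these 10 neighbours, 8 had a broader peak in *jhd2∆* and 1 was broader by more than 100 bp, against 63.2% and 14.2% of all genes, with a median of 25.5 bp and a range of -41 to 117 bp. Next to *CLN1*, the peak of *VTI1*, a SNARE gene, was narrower by 41 bp and that of *ROT1*, a gene of cell wall synthesis, broader by 25 bp. Next to *CLN2*, the peak of the transposon gene YPL257W-A, a repeated sequence whose reads may come from other copies, was broader by 117 bp and that of *BBP1*, a spindle pole body gene, by 30 bp. The differences at *CLN1* and *CLN2* were larger than those at either neighbour.

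The 29 other genes of the pathway (kinase activators and inhibitors, G1 and mitotic transcription factors, and the ubiquitin ligases and phosphatase that end cyclin activity) were examined in the same way. Of them 22 were in both lists, 2 only in *jhd2∆* and 4 in neither, which is 75.9%, 6.9% and 13.8% of the list, against 73.1%, 5.33% and 20.4% of protein-coding genes. Among the 22, 13 had a broader and 9 a narrower peak in *jhd2∆*, with a median of 37 bp and a range of -56 to 214 bp, where 63.2% of all genes had a broader peak. A peak broader by more than 100 bp was found at 4 of the 22 (18.2%) and narrower by more than 100 bp at none, which is near the 14.2% and 1.3% of all genes.

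The 4 pathway genes with a peak broader by more than 100 bp were *FAR1*, *FKH1*, *YOX1* and *CAK1*. *FAR1*, the inhibitor of Cln-bound Cdc28 in the mating response, had 707 bp in WT and 921 bp in *jhd2∆*, with an unchanged upstream edge and a downstream edge 214 bp further into the gene. *FKH1*, a forkhead transcription factor of the mitotic genes, had 608 and 784 bp. *YOX1*, a repressor of early cell cycle genes, had 667 and 832 bp, with its upstream edge 31 bp further out. *CAK1*, the kinase that activates Cdc28, had 526 and 627 bp, a difference of 101 bp just over the limit.

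**Figure D5:**
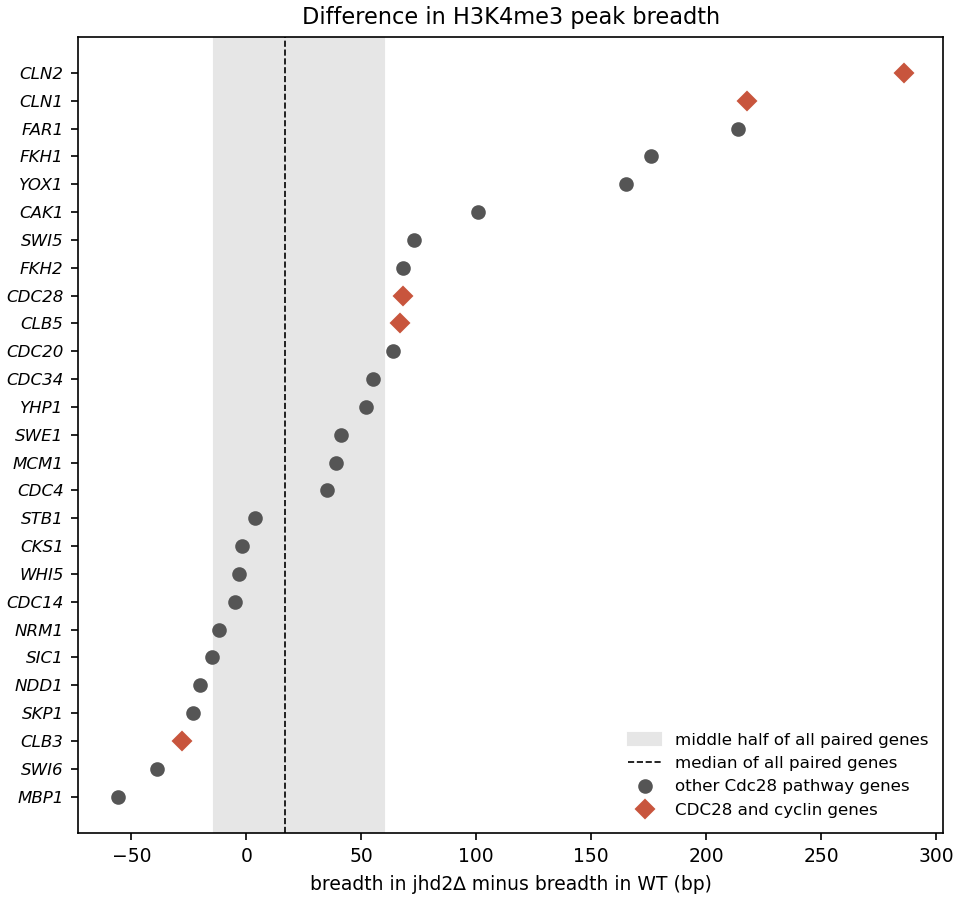
Difference in H3K4me3 peak breadth, *jhd2∆* minus WT, in bp (x axis), for the 5 members in both lists (red diamonds) and the 22 other pathway genes in both lists (grey circles), with 1 library per genotype. The grey band spans the quartiles of all 4526 genes, from -14 to 60 bp, and the dashed line their median of 17 bp. *CLN2* and *CLN1* have the 2 largest differences shown, at 286 and 218 bp, with *FAR1* close behind *CLN1* at 214 bp.

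The inhibitors *SIC1* and *SWE1*, the repressor gene *WHI5* and *CKS1*, the small subunit of the kinase complex, differed by -15, 41, -3 and -2 bp. In both lists the peak of *WHI5* was also given to another gene. *SWI6* and *MBP1*, which encode subunits of the factors that activate the G1 cyclin genes, had the 2 most negative differences of the list, at -39 and -56 bp, while *SWI4*, the partner of *SWI6* at *CLN1* and *CLN2*, was in neither list. *MIH1*, the phosphatase that opposes Swe1, *BCK2*, an activator of G1 transcription, and *GRR1*, the F-box protein that marks Cln1 and Cln2 for destruction, were also in neither.

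As at *CLN3*, missing peak numbers were read as unlisted calls near most of these absent genes. *SWI4* was the only gene between *KAP123* and *LSM4*, and *GRR1* the only one between *BIR1* and *JSN1*, and in each of these intervals both genotypes had 1 call, which was unlisted. *CDC53*, the cullin of the SCF ubiquitin ligase, had a peak of 806 bp in *jhd2∆* and none in WT, where 1 unlisted call lay between *SRF1* and *LYS21*. *CDH1*, the activator of the anaphase-promoting complex in G1, had a peak of 704 bp in *jhd2∆* and none in WT, with 1 unlisted WT call between *RPN14* and *ERG26*. By the peak numbers, both genotypes thus had the same number of calls around *SWI4*, *GRR1* and *CDC53*. Whether the unlisted WT call at *CDC53* lay where *jhd2∆* had its peak cannot be read from the lists. No listed WT peak overlapped that *jhd2∆* peak.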

How the data were processed

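Single-end ChIP-Seq reads were processed by the authors with FastQC, Bowtie2 2.2.3, SAMtools, Picard, GATK and MACS2, per the labels. Peaks were called per library with the broad option off and assigned to a gene where they overlapped the 5′ end of its coding sequence. The control library and genome build are not given in the sources used here. The deposited lists give the start, end and breadth (bp) of every peak, the authors' gene length, and the pileup, which is a signal of read coverage. The scale of the pileup between lists is not stated, and edges and numbers of peaks depend on the depth and threshold of each library. Repeated and empty columns were not used.

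Members and pathway genes were chosen with earlier results of these data known. For each gene the widest peak was taken, the WT breadth was subtracted from the *jhd2∆* breadth, and edges were oriented by the strand letter of the systematic name. Percentiles count genes with strictly lower values. Differences over 100 bp were counted, with 50 and 200 bp as alternatives, and peaks were matched by an overlap of at least 1 bp. Symbols and the order of genes came from the RefSeq table of assembly R64, which matched 4473 of 4628 WT and 4725 of 4868 *jhd2∆* names; no coordinate was taken from it. The text names the 10 members, genes flanking absent members, pathway genes that were absent or differed by more than 100 bp, *JHD2*, and the 3 genes most like *CDC28* in breadth. The result for 1 gene of the pathway list is not reported here. Outside this rule, *PNP1*, the neighbours of listed members, *SIC1*, *SWE1*, *WHI5*, *CKS1*, *SWI6*, *MBP1* and the flanks of absent pathway genes were named after their values were seen. In a simulated copy of the WT list with 4267 genes, the computation returned 100% of 200 peaks extended by far more than the limit. That outcome was fixed by the setting, so it checks the arithmetic and strand signs only and not the peak calling. Tables were made with pandas 2.3.3 and numpy 2.4.6 in Python 3.11.15, intervals with scipy 1.17.1, and plots with matplotlib 3.10.9.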

Additional observations from a re-analysis of the deposited data

How the results depend on the processing

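Of 72 alternative values, 60 planned and 12 added after seeing the data, 56 stayed within the limits set (for a percentile its 95% Wilson interval, which covers counting over genes only, and for the median difference 89.6 bp, the SD over genes). Of the 20 alternative percentiles of the breadth differences, only 8 stayed within their interval. No value changed sign, but percentiles, ranks and counts cannot do so. Of the signed values, only the median difference with a member left out could move. The number of members broader by more than 100 bp was 2, and it was 4 with a limit of 50 bp, at which *CDC28* and *CLB5* are added. It was 1 when the lowest 20% of peaks by pileup were left out of both lists, an added alternative. That filter removes *CLN2* and *CLB5* and leaves 3 of the 5 members, and the share of all genes under it is not given. The median difference of 68 bp ranged from 67.5 to 143 bp when each member was left out in turn, with the highest value without *CLB3* or *CLB5*. The percentiles of the differences ranged from 76.5% to 82.1% at *CDC28*, 96% to 98.2% at *CLN1*, 95.7% to 99% at *CLN2*, 58.6% to 81.9% at *CLB5* and 9.83% to 15.2% at *CLB3*. Choosing the tallest in place of the widest peak tests nothing here, since each listed member has 1 peak. Those values, and the median without members that share a peak, could not move and are counted among the 56. The count of members listed only in *jhd2∆* was checked against listed WT peaks only. It could change only where a listed WT peak of another gene lay over a member's *jhd2∆* peak. No paired analysis was possible because WT and *jhd2∆* have only 1 H3K4me3 library each.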
